A study of Bos taurus with 3 samples.

Results

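Argonaute sites were examined in 6 genes of the photoreceptor outer segment and its cilium: PRPH2, ROM1 and PRCD, whose products sit in the discs, and RP1, C2ORF71 and CEP290, whose products sit in the axoneme and connecting cilium. The genes were chosen by name, and every line of both strand tables that carries 1 of these names was taken, which gave 9 sites of 402 in the series. All 6 genes had at least 1 site, among 280 gene names. The material was dissected retina of cattle of mixed strain, and the 3 samples are replicates 1 to 3 of 1 group with no control. Clusters of retinal cells were irradiated with ultraviolet light to fix protein to RNA, and the RNA that came down with Argonaute was sequenced (HITS-CLIP). Nothing in the labels says whether the replicates came from separate animals, so an SD or p-value over them may reflect technical spread only.

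Argonaute proteins carry miRNAs, short RNAs that guide them to partly complementary stretches of messenger RNA, most often in the 3' UTR, where they lower translation or stability of the message. The outer segment of a rod or cone is a modified cilium filled with stacked membrane discs in which light is detected. It is renewed throughout life, so disc proteins are made in the inner segment in large amounts and pass through the connecting cilium, a narrow bridge built on microtubules. Inherited defects of these genes, for ROM1 in combination with PRPH2, cause retinal degeneration in humans.

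A site is a place where a peak was listed in all 3 replicates, and its height is the mean number of tags (sequenced fragments) over the replicates, without scaling. The listed sites held 6421 tags in replicate 1, 5779 in replicate 2 and 4114 in replicate 3, and the typical site had few: the medians were 12, 10 and 7 tags. The 9 sites held 170, 121 and 127 of these tags, or 2.61% ± 0.50 (SD, n = 3), and made up 2.24% of the sites. Of the rod markers 8 of 11 carried a site, as did 2 of 8 cone markers and 0 of 34 markers of Müller glia, pigment epithelium, ganglion cells, other retinal neurons and blood. RNA levels were not measured, and in whole retina more cells of a type and more RNA per cell cannot be told apart. Coordinates are those of the authors' tables, counted from 1 and running from the outermost start to the outermost end of the 3 peaks. The sources used here do not name the genome build.

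PRPH2, also called peripherin-2 or RDS, is a tetraspanin that bends the disc membrane at its rim. It had 3 sites, all on the minus strand of chromosome 23, and 54, 44 and 41 tags over them in replicates 1, 2 and 3. This sum of 46.3 ± 6.81 tags (SD, n = 3) ranked 15 among the 280 genes. Only 18 of the 280 genes had 3 or more sites.

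The coding site of PRPH2 (16884062 to 16884324) had 18, 15 and 17 tags. In unscaled tags these were the most even values of the 9 sites in relative terms, with the highest 1.20 times the lowest. This did not hold after scaling the replicates by their median ratio over sites. The scaled tags were 15.05, 14.38 and 22.35 here, and more even at the PRCD site, with 10.03, 9.58 and 9.20. At 16.7 ± 1.53 unscaled tags the PRPH2 coding site was 5th in height of the 81 coding sites in the series. The upstream site in the 3' UTR (16870074 to 16870268) had 26, 14 and 10 tags, and so the same mean, 16.7, with an SD of 8.33. The downstream site in the 3' UTR (16869184 to 16869260) had 10, 15 and 14 tags, or 13 ± 2.65. Replicate 1 was the highest replicate at the upstream site and the lowest at the downstream one.

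The summits of the 2 sites in the PRPH2 3' UTR lay 967 nt apart and their peaks were separated by 813 nt. The tags of the downstream site were 0.385, 1.07 and 1.40 times those of the upstream site in replicates 1, 2 and 3. Which of them was taller therefore differed between replicates. Taken singly, neither site was called uneven (exact multinomial test, adjusted p = 0.733 upstream and 0.577 downstream). At counts this low, that does not show that the replicates were alike. The test took each site alone, and the change in order between the 2 sites was not tested. The coding site lay 13793 genomic nt upstream of the nearer 3' UTR site.

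ROM1 is a tetraspanin related to PRPH2 that joins it in the rim complex. It had 1 site, in coding sequence on the plus strand of chromosome 29 (42451306 to 42451468), with 7, 16 and 14 tags. Replicate 1 was the low one, and the mean of 12.3 ± 4.73 tags was 16th among the 81 coding sites. The summits of its 3 peaks were up to 33 nt apart, against a median of 9 nt over all sites. Replicate 1 had its summit upstream of those of replicates 2 and 3, at 42451355, with the others at 42451383 and 42451388. Its listed site was thus coding, while PRPH2 had sites of both kinds.

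PRCD encodes a small membrane protein of the discs, named for progressive rod-cone degeneration in dogs. Its 1 site lay in the 3' UTR on the minus strand of chromosome 19 (56449476 to 56449651) and had 12, 10 and 7 tags. This site of 9.67 ± 2.52 tags was the lowest of the 5 sites in 3' UTRs in these genes, and it ranked 133 of 223 in that class. The summits of the 3 replicates agreed within 1 nt, the closest match of the 9 sites. The peak was broad for its tags, with 126, 173 and 88 nt in replicates 1, 2 and 3.

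RP1 is a microtubule-associated protein of the doublecortin family that lies along the axoneme and is needed for the alignment of the discs. It had 2 sites on the plus strand of chromosome 14, 1 in coding sequence and 1 in the 3' UTR, with summits 905 nt apart. The coding site (22166458 to 22166518) had 4, 5 and 6 tags. At 5 ± 1 tags it ranked 392 of 402 by height, and 5 tags was also the lowest height in the series. The 3' UTR site (22167193 to 22167413) had 7, 9 and 25 tags, or 13.7 ± 9.87, and replicate 3 stood far above the other 2. It was the taller of the RP1 sites in every replicate, by 1.75, 1.8 and 4.17 times.

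C2ORF71, since renamed PCARE, encodes a ciliary protein that directs actin at the base of the outer segment, where new discs form. Its 1 site lay in the 3' UTR on the plus strand of chromosome 11 (72692934 to 72693173) and had 46, 15 and 16 tags. Replicate 1 held 3.07 times the tags of the lowest replicate, and the other 2 were nearly equal. With 25.7 ± 17.6 tags the site ranked 20 of the 223 sites in 3' UTRs. At 27.9 ± 7.65 tags per 100 nt of peak it ranked 22 of all 402 sites on that scale, and it was the densest of the 9.

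CEP290 is a large protein of the transition zone, the part of the connecting cilium that controls what enters the outer segment. Its 1 site was assigned to an intron, on the minus strand of chromosome 5 (20298231 to 20298375), and had 40, 22 and 18 tags. At 26.7 ± 11.7 tags it was the tallest of the 9 sites and 3rd of the 34 intron sites in the series, whose median was 7.83 tags. The 3 peaks shared 95 nt, and their summits were 16 nt apart at most.

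**Figure D1:**
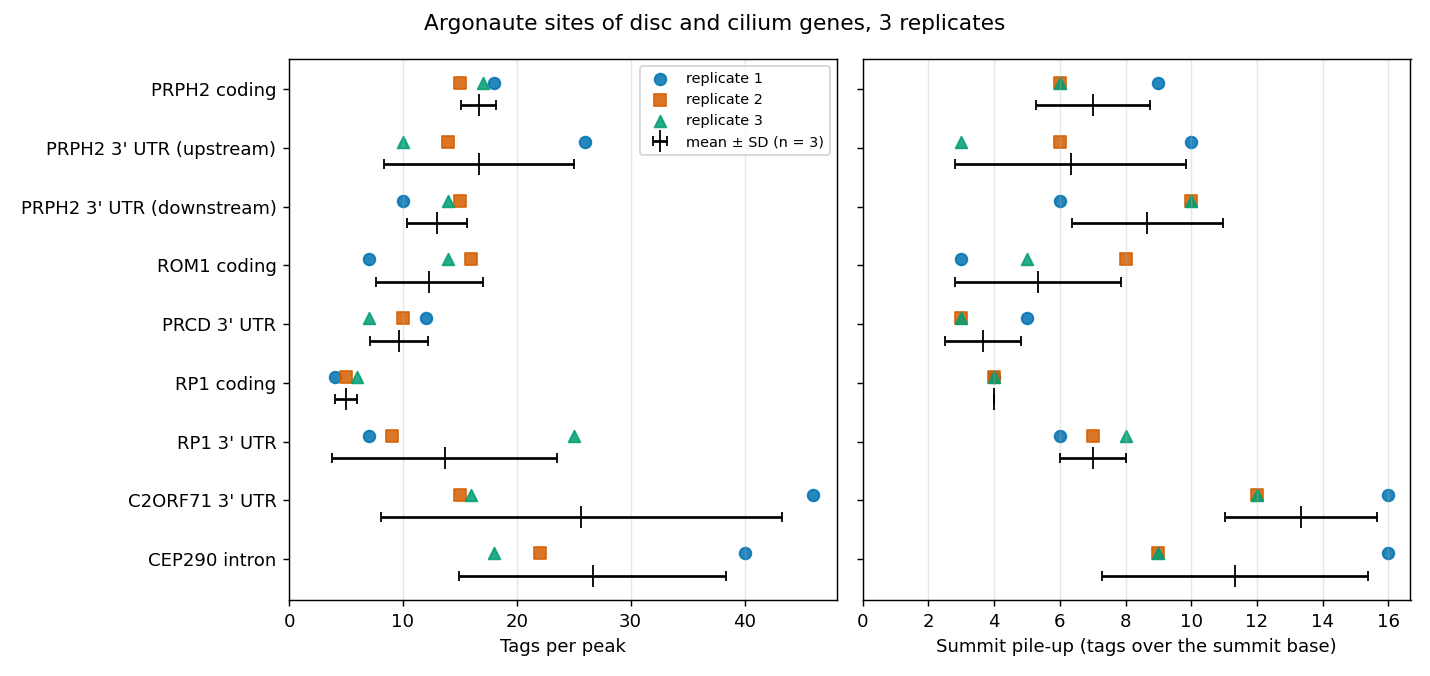
Tags per peak (left) and summit pile-up, the number of tags over the summit base as read from the fold enrichment (right), for the 9 sites in each replicate, with mean ± SD (n = 3) below the points. Replicate 1 of C2ORF71 (46 tags) and replicate 3 of RP1 3' UTR (25 tags) stand apart on the left, while on the right these sites range from 12 to 16 and from 6 to 8.

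Over the 9 sites the order by height was CEP290 intron, C2ORF71 3' UTR, the 2 PRPH2 sites at 16.7 tags, RP1 3' UTR, PRPH2 3' UTR downstream, ROM1 coding, PRCD 3' UTR and RP1 coding. Between neighbours in this order the ranges over the replicates overlapped in every case but the last, where PRCD had at least 7 tags and the RP1 coding site at most 6. The median height was 13.7 tags in the 9 sites and 10.3 in all 402. Of the 9 sites, 7 lay above the median of all sites, where 48.8% of all 402 sites lay. On a scale of tags per 100 nt of peak, 4 of 9 did, with 50% of all sites above the median. The 9 sites were also long: their median length was 118 nt, against 73.5 nt over all sites, and their median density was 11.3 tags per 100 nt, against 14.8 over all sites. These are descriptions without a test, since the genes were chosen with earlier results of these data known.

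By the authors' location classes, 5 of the 9 sites (55.6%) lay in 3' UTRs, 3 (33.3%) in coding sequence and 1 in an intron. Over all 402 sites the shares were 55.5% in 3' UTRs (95% Wilson interval 50.6 to 60.3), 20.1% in coding sequence (16.5 to 24.3) and 8.46% in introns (6.12 to 11.6). The 3' UTR share of the 9 sites was close to that of the series. With 9 sites, each site moves a share by over 10 points, and no difference in shares was tested. In tags, the 3' UTRs held 56.1% ± 3.71 of the 9 sites' total, coding sequence 25.3% ± 7.16 and the CEP290 intron site 18.6% ± 4.69 (SD, n = 3).

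**Figure D2:**
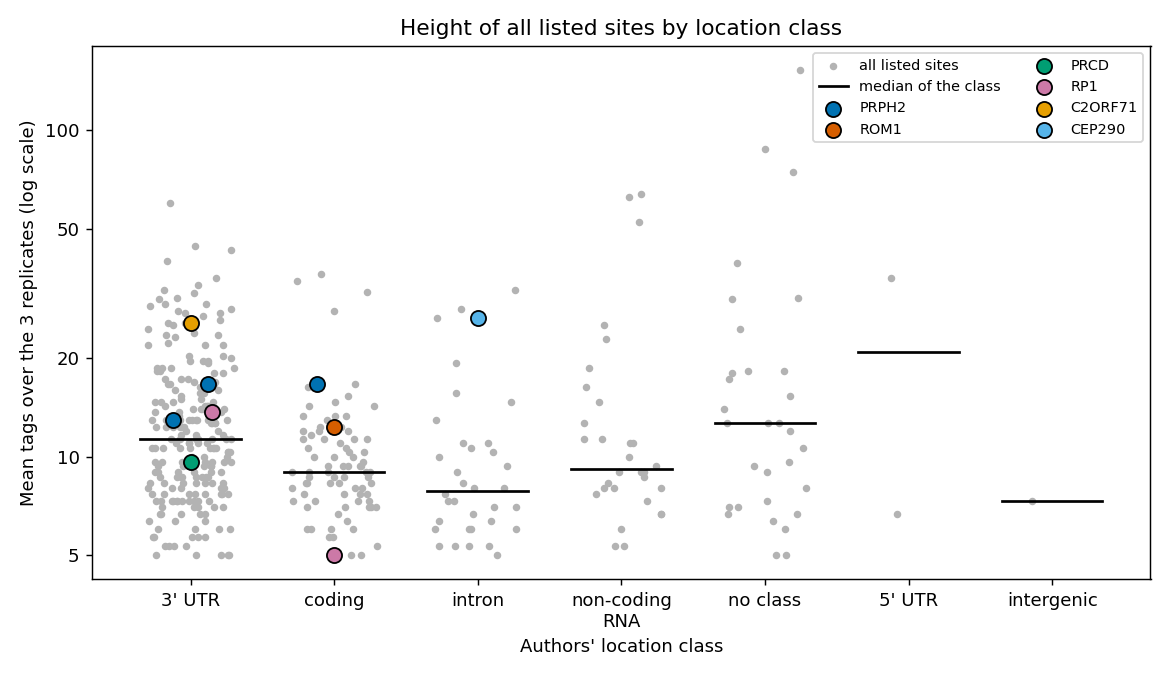
Mean tags over the 3 replicates (log scale) for all 402 sites, by the authors' location class, with a line at the median of each class and the 9 sites in colour. CEP290 lies near the top of the intron class, at 26.7 tags against a class median of 7.83, and the coding site of RP1 lies at the floor of the coding class, at 5 tags.

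The evenness of the replicates was tested at every site of the series. An exact multinomial test compared a site's tags with the shares that counting noise would give, after scaling the replicates by their median ratio over sites, with Benjamini-Hochberg adjustment over all 402 sites. It called 2 of the 9 sites at an adjusted p under 0.05, and 4.98% of all sites. The RP1 3' UTR site was called (exact multinomial test, adjusted p = 0.000402), with 7, 9 and 25 tags. The C2ORF71 3' UTR site was called as well (exact multinomial test, adjusted p = 0.0299), with 46, 15 and 16 tags. ROM1 had an adjusted p of 0.181 in this exact test, and the other 6 sites had values from 0.577 to 1. The test took tags as independent counts. Yet every listed peak was longer in nt than its number of tags, by 19 or more. Whether peak length limited the tags was not tested, so counting noise here holds only under that assumption.

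Both calls depended on the replicates kept. Without replicate 3, the one with the most tags, the RP1 call was lost (exact binomial test, adjusted p = 0.969). It stayed without replicate 1 (exact binomial test, adjusted p = 0.0307) and without replicate 2 (adjusted p = 0.000913). The C2ORF71 call was lost without replicate 1, the one with the most tags (exact binomial test, adjusted p = 1), and without replicate 2 (adjusted p = 0.377). It stayed without replicate 3 (exact binomial test, adjusted p = 0.0188). Scaling the replicates by the step of the fold enrichment, by which 5.97% of all sites were called, left RP1 called (exact multinomial test, adjusted p = 9.82e-06). The same scaling ended the C2ORF71 call (exact multinomial test, adjusted p = 0.117) and called ROM1 (adjusted p = 0.0450), where replicate 1 was low.

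At both called sites the replicate with the most tags also had a far longer peak. The RP1 3' UTR peak was 47, 48 and 221 nt long in replicates 1, 2 and 3. In replicate 3 it ran 172 nt upstream of the stretch of 46 nt shared by all 3 replicates, and only 3 nt downstream of it. The C2ORF71 peak was 240, 48 and 48 nt long. In replicate 1 it ran 167 nt downstream and 26 nt upstream of the shared 47 nt, whereas in replicates 2 and 3 it stayed within 1 nt of them. The longest peak was 4.70 times the shortest at RP1 and 5 times at C2ORF71, against a median of 1.81 over all sites. Ratios as large as these occurred at 12 and 10 of the 402 sites.

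**Figure D3:**
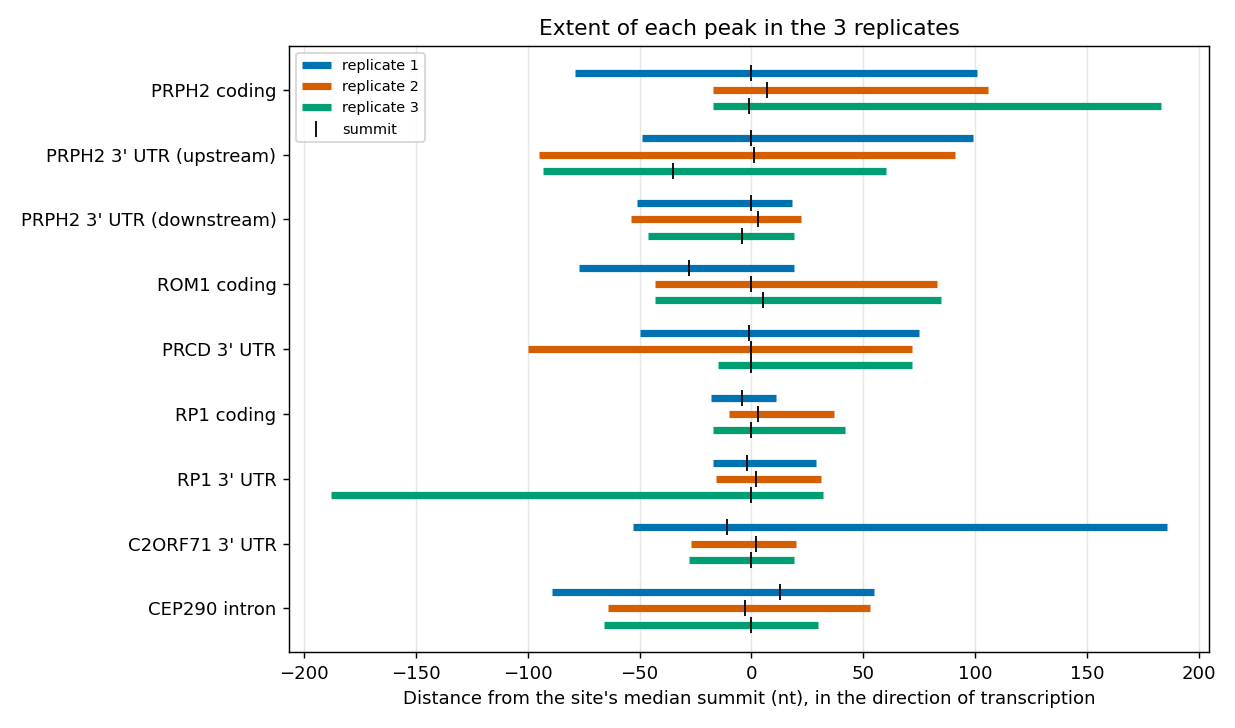
Start and end of each peak in the 3 replicates, as distance in nt from the site's median summit in the direction of transcription, with the summit of each replicate as a black tick. The RP1 3' UTR peak runs 172 nt upstream of the shared stretch in replicate 3 and the C2ORF71 peak 167 nt downstream of it in replicate 1, while their summits lie within 4 and 13 nt of each other.

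The height of these peaks at their summits was read from another deposited column. The deposited fold enrichment was a whole multiple of 1 step for each strand and replicate, within 0.02, and the multiple never exceeded the tags of a peak. It was read as the number of tags over the summit, or summit pile-up; the headers do not say so. The RP1 3' UTR site had a pile-up of 6, 7 and 8 in replicates 1, 2 and 3, which was 85.7%, 77.8% and 32% of its tags. The C2ORF71 site had a pile-up of 16, 12 and 12, or 34.8%, 80% and 75% of its tags. In each the long peak thus held most of its tags away from the summit. With the pile-up in place of the tags, an alternative chosen after seeing the data, the exact multinomial test called 0 of the 9 sites and 0% of all sites. At an unadjusted p under 0.05 it passed 6 of the 402 sites and 0 of the 9. The pile-up reached at most 20 in any peak, while tags reached 219, and its test called no site in the series, so it does not show that the replicates were alike at these sites. With the expected shares weighted by the length of each peak, 0 of the 9 sites and 0.249% of all sites were called (exact multinomial test, adjusted p = 1 for RP1 and 0.378 for C2ORF71). A peak with more tags tends to be longer, so this weighting can also remove differences in tags. At 18 of the 20 sites called in the series, and at 69.7% of all sites, the most tags lay in the longest peak. The part of peak length in the calls was not tested further.

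**Figure D4:**
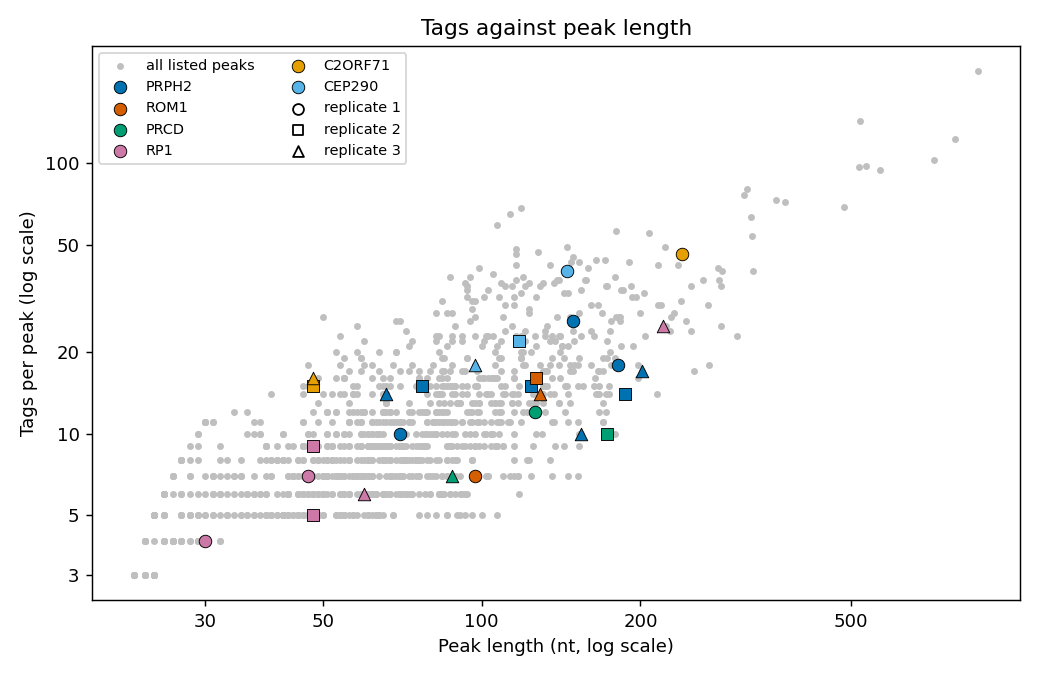
Tags against length of each of the 1206 listed peaks (both axes on a log scale), with the 27 peaks of the 6 genes in colour and the replicate as the symbol. Longer peaks held more tags in general, and C2ORF71 in replicate 1 (240 nt, 46 tags) and RP1 in replicate 3 (221 nt, 25 tags) lie at the long end of that trend.

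The other 7 sites were not called by the test. The pile-up of CEP290 was 16, 9 and 9 and its peaks were 145, 118 and 97 nt long, so replicate 1 was highest on each measure. The PRPH2 upstream site had a pile-up of 10, 6 and 3, while its peaks were 149, 187 and 154 nt long. There the replicate with the most tags had the shortest peak. The PRPH2 downstream site was compact, with peaks of 70, 77 and 66 nt and a pile-up of 6, 10 and 10, and it had the highest density of the 3 PRPH2 sites at 18.3 ± 3.60 tags per 100 nt. The PRPH2 coding site had a pile-up of 9, 6 and 6, that of ROM1 was 3, 8 and 5, and that of PRCD was 5, 3 and 3. The RP1 coding site had a pile-up of 4 in every replicate, which took in 100% of its tags in replicate 1.

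Sites of other genes resembled the uneven ones in the shares of scaled tags over the 3 replicates, a description over 3 values per site. Nearest to the RP1 3' UTR site were sites in the 3' UTRs of CADM1, a neural cell adhesion molecule, with 6, 10 and 18 tags, of SLC25A36, a mitochondrial carrier, with 7, 11 and 17, and of HIPK1, a protein kinase, with 7, 13 and 14. Of these, CADM1 was called (exact multinomial test, adjusted p = 0.0269), and its peak also was longest in replicate 3, at 121 nt against 35 and 56 nt in replicates 1 and 2. The SLC25A36 peak was 35, 46 and 85 nt long in replicates 1, 2 and 3, while that of HIPK1 varied little, at 124, 108 and 125 nt. Nearest to C2ORF71 were 3' UTR sites of SSR1, a subunit of the translocon-associated complex, with 30, 10 and 9 tags, and RAB1A, a GTPase of early secretory traffic, with 24, 8 and 7, and an intron site of ZFR, a zinc-finger RNA-binding protein, with 20, 5 and 6. None of these 3 was called (exact multinomial test, adjusted p from 0.148 to 0.218). The peaks of SSR1 (115, 64 and 51 nt) and RAB1A (111, 77 and 62 nt) were longest in replicate 1. That of ZFR (53, 63 and 47 nt) was longest in replicate 2.

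Other disc and ciliary genes were counted from 5 lists. Of the 128 genes in them, 10 had a site, the 6 genes described here and 4 of the other 122. The 6 genes and the lists were chosen with earlier results of these data known, so the 6 cannot count as sampled hits. No share or interval over the 128 is therefore given. The number of genes expressed in the tissue was not measured, so no share over all genes stands beside the count of 10. Among 13 disc genes there were 4 with a site, PRPH2, ROM1 and PRCD among them. Among 53 genes of the axoneme and connecting cilium there were 4, the additional one being AHI1, a transition zone protein. The lists do not cover every ciliary gene, so these counts depend on which genes were placed on them.

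AHI1 had an intron site with 15, 4 and 5 tags, the same class as CEP290. Both were highest in replicate 1, which also held the most tags over all listed sites. The AHI1 site, at 8 ± 6.08 tags, ranked 16 of the 34 intron sites. Among 22 genes of the BBSome and of lipidated cargo transport there were 2. BBS7, a BBSome subunit, had a coding site with 5, 7 and 5 tags, and UNC119, a carrier of acylated proteins such as transducin, had a coding site with 9, 5 and 4 tags. Both were among the lowest coding sites, at rank 76 and 72 of 81.

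None of 28 genes of intraflagellar transport, the motor-driven traffic along the axoneme, carried a site. Nor did any of 12 genes of the periciliary and Usher complex. No interval is given for these counts either, for the same reason. Genes with no site here may still be bound, since the tables hold only sites with a peak in all 3 replicates, chosen in a way not stated. The score of every listed peak, 10 times the −log10 of its p-value, was 200.02 or more. The coding site of RP1 lay just above that level, with scores of 206.34, 208.8 and 254.14 in replicates 1, 2 and 3.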

How the data were processed

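The samples were 3 HITS-CLIP replicates of bovine retina. Per the submitters' processing notes, CASAVA 1.8.1 and GSNAP were used, without roles; the sources used here name neither the peak caller nor the genome build, nor how peaks were chosen for the tables. Per the file headers, tags are a count per peak and replicate, the score is 10 times the −log10 p-value, and the fold enrichment is a ratio over a background the headers do not describe. Lengths and positions were deposited by the authors and counted from 1.

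Tests used scipy 1.17.1, intervals statsmodels 0.14.6, and tables pandas 2.3.3 and numpy 2.4.6, in Python 3.11.15; figures were drawn with matplotlib 3.10.9. Heights are unscaled mean tags. Totals of listed sites are not library depths, which are unknown, and tags carry no stated molecular identifiers. The Wilson intervals are for counts of sites, not of tags, and cover only the counting error of those. The exact multinomial test covered all 402 sites and was checked on simulated data. The genes, lists and tests were chosen with earlier results of these data known. Named genes are the 6 genes, list genes with a site (1 of them is not reported here), and the 3 nearest profiles (10 or more mean tags) of each called site. In the RefSeq gene table of ARS-UCD2.0, used for names only, 4 of the 6 genes matched by symbol. No sequence was read, since no genome was used here. Alternatives changed the scaling, the measure of height, the sites counted and the replicates.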

Additional observations from a re-analysis of the deposited data

How the results depend on the processing

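The tables hold sites with a peak in every replicate, all with a score of 200.02 or more, and how they were chosen is not stated. Counts are low, depth is unknown and a missing site is not evidence of absence. No paired analysis was possible because there is 1 group. The median percentile of the 9 sites among all sites was 71.3 by height and 19.5 by tags per 100 nt of peak, and 57.8 to 81.0 with a replicate left out. By tags per 100 nt 4 sites lay above the median in place of 7. The spread test called 20 sites of the series, 1 with shares weighted by peak length, 0 with the summit pile-up and 6 to 12 with a replicate left out. Of the 9 sites it called 2, 0 under the first and second of these settings and 1 with any replicate left out. The cause was not tested. The lists had 10 genes with a site, 6 with only sites above the median height or with the minus-strand table alone, and 4 with the plus-strand table alone, which counts fewer sites by construction. The 3' UTR share of the 9 sites, 55.6% (95% Wilson interval 26.7 to 81.1), was 56.1% by tags and 50% with nearby sites of a gene merged.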

Other observations

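Every one of the 1206 listed peaks was longer in nt than its number of tags, by a margin of 19 or more, and 45 had a margin of exactly 19. None of the 27 peaks of the disc and cilium genes did, but 27 peaks are too few to tell this from 45 of 1206. Their smallest margin was 26 nt, at the RP1 coding site in replicate 1, which had 4 tags over 30 nt. The highest summit pile-up of any peak in the series was 20, and that of the 27 peaks was 16, in replicate 1 of both C2ORF71 and CEP290.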
